A study of Mus musculus with 2 samples.

Results

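Plac8, Sdf4, Ehd1, Furin, Ctsb, Crem, Ms4a4b and AW112010 are 8 of the 28009 genes listed in single-cell RNA-seq of IL-10-producing CD4+ T cells from the small intestine and the spleen of mice. The genes were chosen by their place among the leading genes of the Ccl5-high cells in both tissues. The cells came from IL-10eGFP Foxp3mRFP double reporter mice, 8 to 16 weeks old and matched for age and sex, which received 2 intraperitoneal injections of 15 µg anti-CD3 antibody (clone 2C11), on day 0 and day 2, and were killed 4 h after the second. Both groups share this treatment and both reporter alleles, and no untreated group is among these libraries. The labels name no gate on Foxp3, and the paper states that Foxp3+ cells were included among the sorted cells. The sources used here do not give the intestinal fraction that was sorted. Foxp3 reached at most 143 CPM (UMIs per 1000000 UMIs) in any cluster. Each tissue is 1 library, and how many mice were pooled for it is not given in the sources used here. No test between tissues or between groups of cells was therefore possible, and all differences are descriptions of these 2 libraries. Since the same cells chose the genes, their association with Ccl5 is not a finding of its own.

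T cells that make Ccl5 and granzymes are cytotoxic-like effector cells, whose products leave through the secretory pathway. Several of the 8 genes act along that pathway or near it. Sdf4 encodes Cab45, a calcium-binding protein of the Golgi lumen that helps to sort secreted proteins. Furin encodes a proprotein convertase of the trans-Golgi network and endosomes that cleaves precursors such as that of TGF-β. Ehd1 encodes an ATPase of endocytic recycling, and Ctsb the lysosomal cysteine protease cathepsin B. Crem encodes a transcription factor that answers to cAMP. Ms4a4b encodes a membrane protein of the MS4A family found in T cells, Plac8 a small cysteine-rich protein common in immune cells, and AW112010 an interferon-induced transcript annotated as a long noncoding RNA.

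RefSeq promoter windows (250 bases before to 50 after a start site, GRCm38.p6) are reported for 5 of the 8 genes (Plac8, Sdf4, Furin, Ms4a4b and AW112010). The promoter of Crem is not reported here. Plac8 is shown as the gene with the largest rise towards Ccl5-high cells in both tissues, and Ms4a4b as the gene that was higher in the spleen. Capitals mark the motifs found on either strand among 6 searched: CRE (TGACGTCA), AP-1 (TGANTCA), GAS (TTCNNNGAA), RUNX (TGTGGT), the TATA box (TATAAA), as well as the CCAAT box (CCAAT). No 2 of the marked motifs overlap.
Plac8, chr5:100572156-100572455, minus strand: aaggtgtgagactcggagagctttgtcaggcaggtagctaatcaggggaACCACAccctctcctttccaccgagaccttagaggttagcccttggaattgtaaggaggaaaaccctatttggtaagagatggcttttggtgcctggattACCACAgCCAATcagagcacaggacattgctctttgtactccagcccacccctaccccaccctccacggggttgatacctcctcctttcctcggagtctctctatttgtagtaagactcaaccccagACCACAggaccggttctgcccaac
Ms4a4b, chr19:11443308-11443607, plus strand: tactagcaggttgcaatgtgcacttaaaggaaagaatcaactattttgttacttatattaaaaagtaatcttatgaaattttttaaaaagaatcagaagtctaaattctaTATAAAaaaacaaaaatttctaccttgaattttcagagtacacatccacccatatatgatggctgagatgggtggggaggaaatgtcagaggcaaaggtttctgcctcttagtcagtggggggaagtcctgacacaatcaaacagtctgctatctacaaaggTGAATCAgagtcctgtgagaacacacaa
The Plac8 window shown holds the RUNX letters at 3 places, each on the other strand, and 1 CCAAT box. Another Plac8 window (chr5:100563047-100563346, minus strand) holds 1 CCAAT box and no RUNX letters. The Ms4a4b window holds 1 TATA box and 1 AP-1 motif. Of the windows not shown, a Furin window (chr7:80405387-80405686) holds CCAAT boxes at bases 98 and 145 and a TATA box at base 228. An Sdf4 window (chr4:155993087-155993386) holds a CCAAT box at base 51 and a GAS motif at base 164. Another (chr4:155992903-155993202) holds a CCAAT box at base 235. The remaining Furin and Sdf4 windows hold none of the 6. Of all 32851 windows, 16.8% hold RUNX, 37.4% CCAAT, 13.6% TATA, 7.81% AP-1, 8.3% GAS and 1.79% CRE letters. The AW112010 window (chr19:11050517-11050816), which lies inside the annotated gene, holds none of the 6. A match is a string of letters only, and binding was not measured.

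In GRCm38 (GENCODE annotation), Plac8 lies at chr5:100553725-100572245 on the minus strand, Sdf4 at chr4:155992872-156013610 on the plus strand and Furin at chr7:80388585-80405436 on the minus strand. Ctsb lies at chr14:63122462-63145923 on the plus strand and Crem at chr18:3266048-3337748 on the minus strand. The other 3 genes are on chromosome 19: Ehd1 at chr19:6276725-6300096 (plus strand), AW112010 at chr19:11047612-11055808 (minus strand) and Ms4a4b at chr19:11443553-11467055 (plus strand). A gene on the other strand overlaps Furin (Gm44851), Ctsb (Fdft1) and Crem (Gm6225), and these had 43, 256 and 14 UMIs in both libraries together. Between AW112010 and Ms4a4b lie 388 kb. The stretch from one to the other holds 19 annotated genes, 10 of them of the MS4A family, and 15 are listed in the files. Only AW112010, Ms4a4b, Ms4a4c and Gm28935 reached 100 UMIs over both libraries, and 7 of the 15 had none. The genes between AW112010 and Ms4a4b were thus hardly detected in these cells. The stretch ends at both genes, and neighbours beyond it were not counted here.

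The small-intestinal library had 1474 barcodes and 5693395 UMIs (unique molecular identifiers, which count RNA molecules), and the spleen library 1738 barcodes and 11103530 UMIs. After cells of poor quality and cells in G2/M were left out, 1278 and 1469 cells remained, with a median of 3696 and 5408 UMIs. No barcode was shared. Levels are UMIs summed over cells per 1000000 UMIs of the same cells (CPM), with exact Poisson 95% intervals in brackets. For shares of cells, UMIs were drawn at random to bring each cell to 2089, which left 1150 and 1439 cells, with exact Clopper-Pearson intervals. Intervals cover counting error only, not differences between mice or cells. Cd3e reached 851 and 554 CPM and Cd4 399 and 208 CPM in small intestine and spleen. Cd8a reached 200 CPM in the small intestine, where a cluster of 119 cells was led by Gzma, Cd8a and Cd8b1, and had no UMI in the spleen (Cd8b1 reached 152 and 13.7 CPM). The label is CD4+ T cells. The Cd4 level of that cluster was not computed, so whether its cells fit the label cannot be told here. A difference was counted when it reached 1.5-fold.

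Between the tissues, 6 of the 8 genes differed by at least 1.5-fold, and 5 of these were higher in the small intestine. Of 7728 genes with at least 100 UMIs, 43.8% differed as much, so the count does not set these genes apart. Plac8 reached 1606 CPM (1571 to 1641) in the small intestine and 228 CPM (218 to 238) in the spleen, a 7.05-fold difference, and was found in 67.9% and 15.8% of thinned cells. Ehd1 reached 368 CPM (351 to 385) against 57.0 CPM (52.2 to 62.1), 6.45-fold, and was found in 48.7% and 9.17% of cells. Both genes thus differed between the tissues in level and in how many cells held a UMI of them. Sums over cells alone do not separate fewer positive cells from less RNA per cell. Of thinned cells with a Plac8 UMI, 19.6% of intestinal and 37.7% of splenic ones held only 1. For Ehd1 these shares were 61.8% and 90.9%. Positive splenic cells thus held only 1 UMI of either gene more often, and the share of positive cells was lower too. How much each adds to the difference in level was not tested.

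Furin reached 783 CPM (759 to 808) in the small intestine and 185 CPM (176 to 194) in the spleen, and Crem 806 CPM (781 to 831) and 234 CPM (225 to 244). These are differences of 4.23-fold and 3.44-fold, with Furin in 54.7% and 15.3% and Crem in 67.8% and 33.1% of thinned cells. AW112010 was 1.75-fold higher in the small intestine, at 3234 CPM (3185 to 3284) against 1848 CPM (1820 to 1876). Nearly every intestinal cell held it (97.8%), as did 84.9% of splenic cells.

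Sdf4 and Ctsb, the Golgi and lysosomal genes, stayed under 1.5-fold. Sdf4 reached 1250 CPM (1219 to 1281) and 1049 CPM (1028 to 1070) in small intestine and spleen, and Ctsb 803 CPM (778 to 828) and 652 CPM (635 to 668). They were found in 81.0% and 76.7% (Sdf4) and in 74.7% and 66.1% (Ctsb) of thinned cells. Ms4a4b went the other way, with 817 CPM (793 to 843) in the small intestine and 1385 CPM (1361 to 1410) in the spleen, 1.69-fold higher in the spleen, and was found in 68.3% and 83.9% of cells. Over the same cells, Ccl5 was 17.3-fold and the granzyme gene Gzmb 12.1-fold higher in the small intestine, whereas Il10 differed by 1.25-fold. The median of all 7728 genes lay at 0.03 on the log2 scale (spleen over small intestine).

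**Figure D1:**
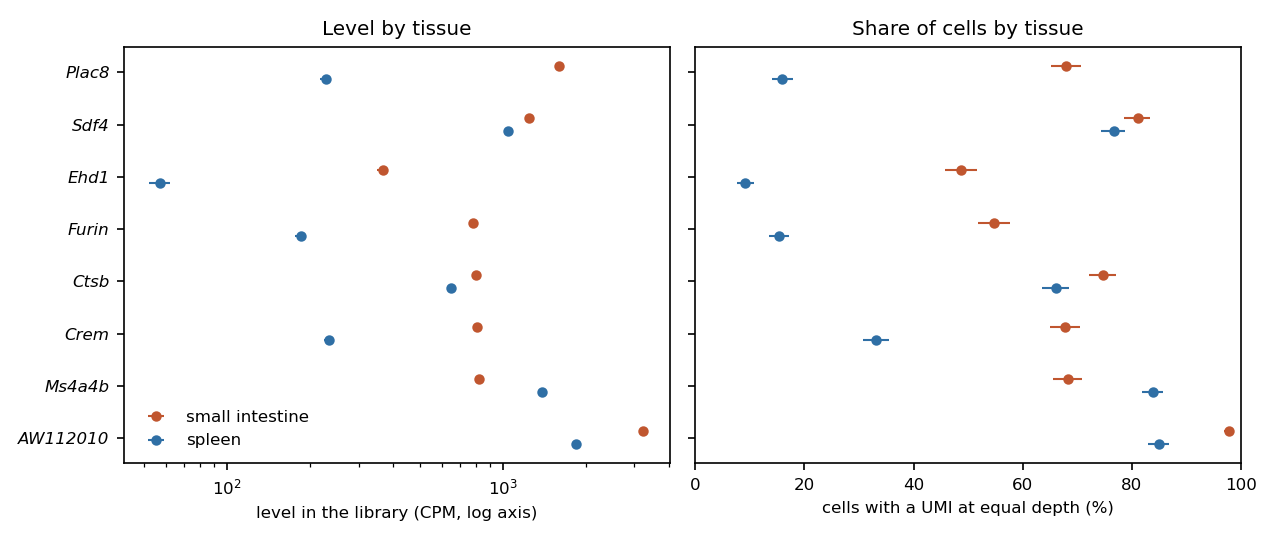
Left, level of each gene in CPM on a log axis. Right, share of cells with at least 1 UMI after every cell was thinned to 2089 UMIs. Points are the 2 libraries and bars exact 95% counting intervals. Plac8, Ehd1, Furin and Crem lie far apart between the tissues, Sdf4 and Ctsb close together, and Ms4a4b lies higher in the spleen.

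To see how the genes go with Ccl5, a chemokine of cytotoxic cells, thinned cells with at least 10 Ccl5 UMIs (Ccl5-high) were set against cells with at most 2 (Ccl5-low). The small intestine had 989 Ccl5-high and 99 Ccl5-low cells, and the spleen 150 and 1224. Only 11 and 15 cells lay within 1 UMI of the upper limit. The small-intestinal Ccl5-low group is thus small. Of its cells, 92.9% belonged to a single cluster of 180 cells led by Capg and Emb, which also held Il17a, so the contrast there is largely that of 1 cluster against the rest. Markers of B cells (7 of 9 listed in the files) summed to 491 CPM in these Ccl5-low cells and to 40.4 CPM in the Ccl5-high cells. The CD8 genes Cd8a and Cd8b1 summed to 6.55 CPM and 422 CPM. The part of these cells in the ratios was not tested. Without cells holding a UMI of a B-cell marker, 5 and 3 genes were again past 1.5-fold, with 1.40 for Ms4a4b and 0.63 for Crem in the small intestine. Changes without cells holding a CD8 UMI are given where they exceeded 0.1.

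Plac8 had the largest ratio of the 8 in both tissues. In the small intestine it reached 1855 CPM in Ccl5-high and 458 CPM in Ccl5-low cells (log2 ratio 2.02, interval 1.82 to 2.22), and was found in 74.0% and 31.3% of them. No rise was seen below 10 Ccl5 UMIs there, with 45.8%, 26.7% and 29.0% of cells at 0, 1 to 2 and 3 to 9 Ccl5 UMIs. These classes held only 24, 75 and 62 cells, and their intervals overlapped. In the spleen Plac8 reached 834 CPM and 154 CPM (2.43, 2.30 to 2.57), in 43.3% and 11.8% of cells, with 29.2% at 3 to 9 Ccl5 UMIs. A cell of the spleen with 10 or more Ccl5 UMIs was therefore still less likely to hold Plac8 than a cell of the small intestine in that class. The class has no upper limit, and its Ccl5 level was 56753 CPM in small intestine and 28912 CPM in spleen. The cells are thus not matched for Ccl5.

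Ms4a4b reached 915 CPM in Ccl5-high and 323 CPM in Ccl5-low intestinal cells (1.503, 1.27 to 1.75), but 1791 CPM and 1329 CPM in the spleen (0.43, 0.35 to 0.51). The low value was that of the intestinal Ccl5-low cells, of which 26.3% held Ms4a4b, against 73.3% of intestinal Ccl5-high, 93.3% of splenic Ccl5-high and 82.8% of splenic Ccl5-low cells. Ehd1 was higher in Ccl5-high cells of both tissues, with 393 CPM against 260 CPM in the small intestine (0.60, 0.33 to 0.88, and 0.74 without cells holding a CD8 UMI) and 113 CPM against 49.9 CPM in the spleen (1.17, 0.83 to 1.51).

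AW112010 was almost level in the small intestine, with 3331 CPM and 3002 CPM (0.15, 0.07 to 0.23). In the spleen it reached 3578 CPM in Ccl5-high and 1611 CPM in Ccl5-low cells (1.15, 1.09 to 1.21). All 150 Ccl5-high cells of the spleen held it. Sdf4 had ratios of 0.87 (0.71 to 1.03) in the small intestine, 1.01 without cells holding a CD8 UMI, and 0.29 (0.19 to 0.38) in the spleen. Those of Crem were 0.73 (0.54 to 0.92) and 0.52 (0.33 to 0.71).

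Furin and Ctsb did not follow Ccl5 in the small intestine. Furin reached 673 CPM in the Ccl5-high and 1298 CPM in the Ccl5-low cells there (-0.95, -1.08 to -0.82), and -0.74 without cells holding a CD8 UMI. The share of cells with Furin differed less, at 53.5% and 59.6%. In the spleen the Furin levels were 181 CPM and 187 CPM (-0.04, -0.30 to 0.20). Over the classes of 0, 1 to 2, 3 to 9 and 10 or more Ccl5 UMIs, intestinal Furin was 964 CPM, 1448 CPM, 1706 CPM and 673 CPM, and so lowest in the last. The intestinal classes below 10 UMIs held only 24, 75 and 62 cells. In the spleen the share of cells with Furin over these classes was 13.7%, 18.4% and 24.6%, and 18.0% at 10 or more Ccl5 UMIs. Ctsb was 800 CPM against 918 CPM in the small intestine (-0.20, -0.35 to -0.05), -0.061 with an interval across 0 without cells holding a CD8 UMI, and 875 CPM against 625 CPM in the spleen (0.48, 0.37 to 0.60).

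In all, 5 of the 8 genes were at least 1.5-fold higher in Ccl5-high cells of the small intestine (Plac8, Ms4a4b, Sdf4, Crem and Ehd1), where 10.2% of the genes with 100 UMIs were, and 15.3% were as much lower. In the spleen 3 were (Plac8, Ehd1 and AW112010), where 7.26% of the genes were higher and 13.1% lower. The median log2 ratio of the 8 genes was 0.66 and 0.50, against -0.15 and -0.06 over all genes. Since the genes were picked from the same cells for this direction, nothing is read from these counts. Crem and Ehd1 stood near the limit in the small intestine, and over 6 random thinnings Crem reached it in 3 and Ehd1 in 5.

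**Figure D2:**
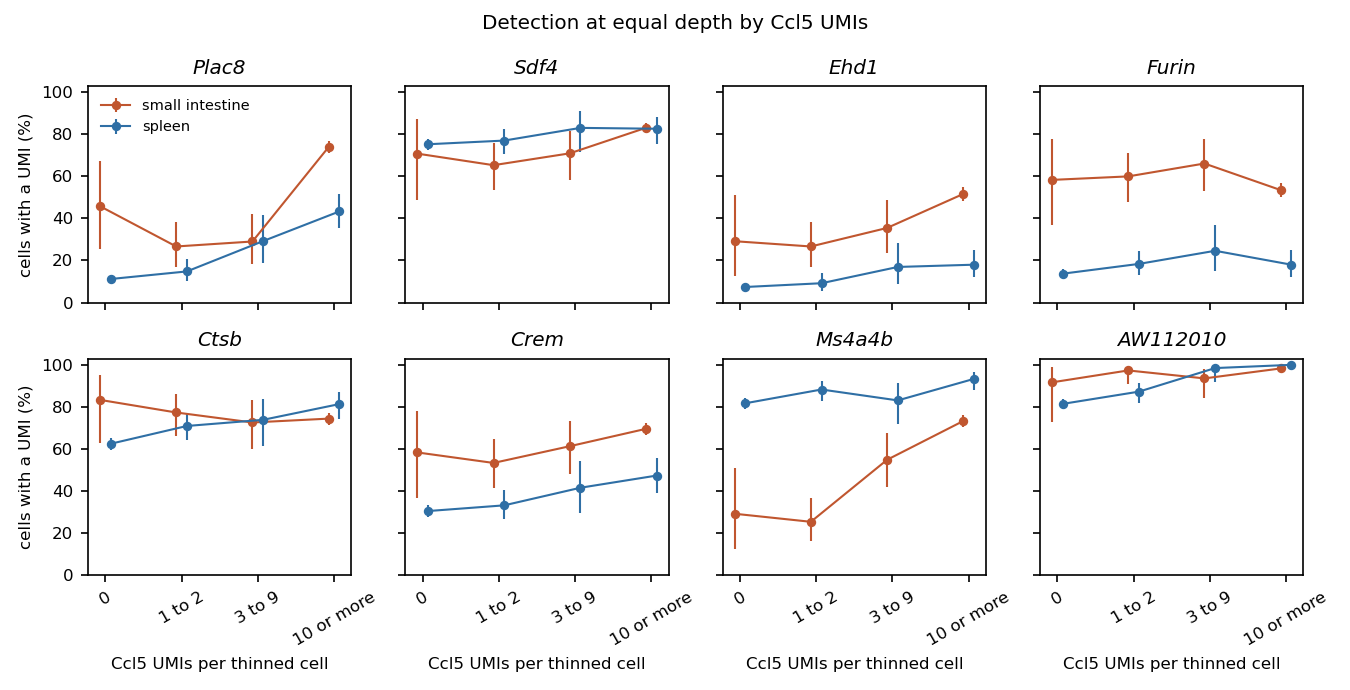
Share of thinned cells with at least 1 UMI of each gene (vertical axis, percent) by the number of Ccl5 UMIs per thinned cell (horizontal axis), for both tissues, with exact 95% intervals. Plac8 and Ms4a4b rise to 74.0% and 73.3% at 10 or more Ccl5 UMIs in the small intestine, AW112010 rises to 100% in the spleen, and Furin lies between 53.5% and 66.1% in the small intestine.

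Gzmb encodes granzyme B, which enters target cells from cytotoxic granules. Cells with at least 10 thinned Gzmb UMIs were set against cells with at most 2. In the small intestine (872 and 109 cells) 2 of the 8 genes were at least 1.5-fold higher, Plac8 (1843 CPM against 709 CPM, log2 ratio 1.38) and Ms4a4b (871 CPM against 576 CPM, 0.60), where 8.56% of the genes were. Both Ms4a4b and Ehd1 stood near the limit. Ms4a4b reached it in 1 of 6 thinnings, and Ehd1 (392 CPM against 282 CPM, 0.47) in 3 of 6. In the spleen (90 and 1210 cells) 4 were, where 7.62% of the genes were. These were Plac8 (539 CPM against 183 CPM, 1.56), Ehd1 (107 CPM against 49.5 CPM, 1.11), AW112010 (2964 CPM against 1661 CPM, 0.84) and Crem (374 CPM against 214 CPM, 0.81). Plac8 was again the gene with the largest ratio in both tissues. Gzmb went with Ccl5, by which the genes were chosen. Of the 872 intestinal Gzmb-high cells, 839 were Ccl5-high, but so were 989 of all 1150 thinned cells. Of the 90 splenic Gzmb-high cells, 31 were Ccl5-high and 48 Ccl5-low, where 150 of all 1439 thinned cells were Ccl5-high. In the spleen Gzmb was 3518 CPM in cells with 10 or more Ccl5 UMIs and 637 CPM in cells with 0. The Gzmb counts are therefore not independent of the choice of genes, and nothing is read from them.

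Furin had ratios of opposite sign between Gzmb-high and Gzmb-low cells of the 2 tissues. It was 688 CPM in Gzmb-high and 1122 CPM in Gzmb-low cells of the small intestine (-0.71, -0.85 to -0.57) and 263 CPM against 182 CPM in the spleen (0.53, 0.29 to 0.77, and 0.14 to 0.53 over 6 thinnings). Over 0, 1 to 2, 3 to 9 and 10 or more Gzmb UMIs, splenic Furin was 179, 198, 166 and 263 CPM. Furin thus did not rise steadily with Gzmb in the spleen. Inside the Ccl5-high cells of the spleen, the 31 Gzmb-high cells had 368 CPM of Furin and the 80 Gzmb-low cells 133 CPM (1.46, 0.93 to 2.01). Plac8 was higher in the same Gzmb-high cells, with 1370 CPM against 605 CPM (1.18, 0.92 to 1.44). These 2 of the 8 genes were past 1.5-fold there, where 4.95% of 828 genes were. Over 6 thinnings the ratio of Furin was 1.19 to 1.71 and that of Plac8 0.95 to 1.19. Of the 150 splenic Ccl5-high cells, 27 held a Furin UMI after thinning, and a kept splenic cell held up to 35 before it. The Furin ratio thus rests on few cells, and thinnings redraw UMIs of the same cells. Among splenic Ccl5-low cells (48 Gzmb-high and 1092 Gzmb-low) Plac8 had -0.22 (-0.67 to 0.20, and -1.18 to 0.04 over thinnings). Past 1.5-fold there were Ehd1 (1.20, and 0.47 to 1.20 over thinnings), Crem (1.09, 0.84 to 1.33) and AW112010 (0.69, and 0.55 to 0.69 over thinnings). The share of all genes past 1.5-fold is not given for these cells, so nothing is read from this. Inside intestinal Ccl5-high cells, where only 30 cells were Gzmb-low, Furin had 0.57 (-0.12 to 0.57 over thinnings). This ratio was positive in 3 of 6 thinnings, so its direction there was not settled.

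The ratios to Il10 had another order. Cells with at least 2 thinned Il10 UMIs (385 in the small intestine, 342 in the spleen) (Il10-high) were set against cells with none (Il10-low, 462 and 761). With so few UMIs a cell's class changes from one thinning to the next, so the range over 6 thinnings is given as well. Furin had the largest ratio in both tissues. In the small intestine it rose through the classes of 0, 1 and 2 or more Il10 UMIs from 578 CPM to 788 CPM and 1036 CPM (0.84, 0.73 to 0.95, and 0.65 to 0.87 over thinnings). In the spleen it was 145 CPM, 138 CPM and 312 CPM (1.11, 0.95 to 1.26, and 0.85 to 1.21 over thinnings). Splenic cells with 2 or more Il10 UMIs were also deeper before thinning, with a median of 6190 UMIs against 5080 in those with none.

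Sdf4 followed in the small intestine, with 1527 CPM in Il10-high and 1006 CPM in Il10-low cells (0.60, and 0.54 to 0.65 over thinnings). Crem followed in the spleen, with 295 CPM against 179 CPM (0.72, and 0.52 to 0.79). Ehd1 had 73.1 CPM against 46.4 CPM in the spleen (0.66), a value that ran from 0.12 to 0.66 over thinnings and passed 1.5-fold in 1 of 6. Ms4a4b was level in both tissues, at 847 CPM and 834 CPM in the small intestine (0.02) and 1411 CPM and 1409 CPM in the spleen (0.0022). Plac8 was lower in Il10-high cells of the small intestine (1509 CPM against 1838 CPM, -0.28, and -0.30 to -0.02 over thinnings). It was higher in those of the spleen (241 CPM against 182 CPM, 0.41), and this last value ran from -0.35 to 0.48 over thinnings.

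By count, 2 of the 8 genes (Furin and Sdf4) were at least 1.5-fold higher in Il10-high cells of the small intestine, where 2.04% of the genes were. In the spleen 3 were (Furin, Crem and Ehd1), where 3.42% of the genes were. Median log2 ratios of the 8 genes were 0.46 and 0.51, against 0.02 and 0.06 over all genes. These counts fell to 1 under several other settings, with Furin the gene that stayed.

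The ratio of Furin to Il10 was also seen among cells of 1 Ccl5 class, in the larger groups. Inside Ccl5-high cells of the small intestine it was 917 CPM in 338 Il10-high and 474 CPM in 400 Il10-low cells (0.95, and 0.80 to 1.02 over thinnings). Of the 8 genes, 1 (Furin) was past 1.5-fold there, where 2.37% of the genes were. Inside Ccl5-low cells of the spleen it was 324 CPM in 281 and 144 CPM in 662 cells (1.17, and 1.11 to 1.42 over thinnings), and Crem was 282 CPM against 168 CPM (0.75, and 0.65 to 0.80). These 2 genes were past 1.5-fold there, where 4.22% of the genes were. Inside the splenic Ccl5-high cells, 46 Il10-high and 67 Il10-low cells were too few, and the ratio of Furin ran from -1.05 to 1.32 over thinnings. In the 32 and 36 intestinal Ccl5-low cells it ran from 0.34 to 1.09. A Ccl5 class still mixes clusters. In the intestinal Cd8a and Cd8b1 cluster all 112 thinned cells were Ccl5-high, and Furin (131 CPM) and Il10 (273 CPM) were both at their lowest. Splenic Ccl5-low cells included 198 of a cluster led by Klf2, with 49.3 CPM of Furin and 83.7 CPM of Il10. Cells with a CD8 UMI were left out only for Ccl5, so the part of clusters in the Il10 ratios was not tested.

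**Figure D3:**
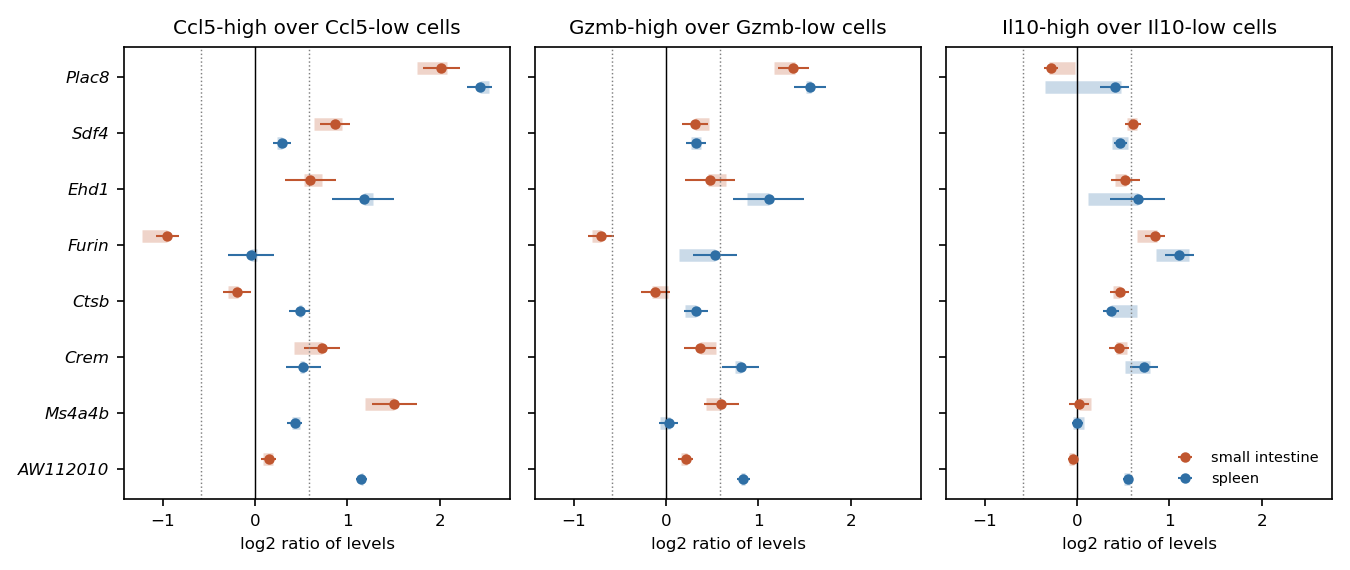
Log2 ratio of the level in cells high and low in Ccl5, Gzmb or Il10 for each gene and tissue. Points and thin bars are the ratio and its exact 95% counting interval, pale bars the range over 6 random thinnings, and dotted lines mark 1.5-fold. Plac8 has the largest ratio for Ccl5 and Gzmb, and Furin for Il10, where Ms4a4b lies at 0.

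Co-detection was counted as the share of thinned cells holding UMIs of both genes. In the small intestine 1126 of 1150 cells held a Ccl5 UMI and 1107 a Gzmb UMI, so co-detection with these could hardly exceed its expectation from independence. Among 1439 splenic cells, Plac8 and Ccl5 were found together in 113 against 65.1 expected (1.74 times). Ehd1 and Gzmb were found together in 66 cells against 37.2 expected (1.77 times), Plac8 and Gzmb in 99 against 64.3 (1.54 times) and Ehd1 and Ccl5 in 56 against 37.7 (1.49 times). Furin and Gzmb shared 90 cells against 62.1 expected (1.45 times).

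With Il10, the highest ratio of observed to expected in the small intestine was that of Furin, with 419 cells against 376 (1.11 times), followed by Ehd1 with 364 against 335 (1.09 times). Of cells with an Il10 UMI 60.9% held Furin there, and of cells without one 45.5%. In the spleen Crem and Il10 were found together in 274 cells against 224 (1.22 times), with Crem in 40.4% of cells with and 26.5% of cells without an Il10 UMI. Ms4a4b and Il10 came at 1.02 and 0.995 times their expectation in small intestine and spleen.

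Among the 28 pairs of the 8 genes, the median ratio of observed to expected was 1.03 in small intestine and 1.06 in spleen, where a gene held by nearly every cell, such as AW112010 in the small intestine, cannot lie far above its expectation. The highest pair was Ehd1 and Furin in both tissues (1.10 and 1.68 times). Furin and Ms4a4b were the lowest pair in the small intestine (0.974) and Sdf4 and Ms4a4b in the spleen (0.986). A cell held a median of 6 of the 8 genes in small intestine and 4 in spleen, and 5 among splenic Ccl5-high cells. All 8 together were found in 102 intestinal and 3 splenic cells.

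Graph clusters were made without the 8 genes and without Ccl5, Gzmb and Il10. The small intestine had 6 clusters and the spleen 7, named here by leading genes. Some splenic clusters are named by a cell type of which at least 3 markers led. Other clusters with as many leading markers of a type keep the names of their leading genes. The cluster richest in Ccl5 had 105 cells in the small intestine (led by Ccl4 and Ccl5) and 109 in the spleen (led by Ccl5, Ccl4 and Nkg7), with 72485 CPM and 25108 CPM of Ccl5. Of the 8 genes, 2 were highest in that cluster in the small intestine (Ehd1 and Ctsb), where 12.8% of the genes were. In the spleen 2 were (Plac8 and Ehd1), where 13% of the genes were. Ehd1 had its highest value there in both tissues, but in the small intestine 563 CPM (496 to 637) overlapped the 515 CPM (479 to 554) of the cluster of 355 cells. The other 7 genes had their highest value in another cluster in at least 1 tissue, though not always beyond counting error. Which intestinal genes these were changed with the clustering.

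In the small intestine, Plac8 was highest in the cluster led by Gzma, Cd8a and Cd8b1, at 2428 CPM (2306 to 2555), and lowest in the Capg and Emb cluster, at 487 CPM (437 to 541). Furin was highest where Plac8 was lowest and the reverse. It reached 1312 CPM (1230 to 1399) in the Capg and Emb cluster and 131 CPM (104 to 164) in the Cd8a and Cd8b1 cluster, a 9.99-fold range that was the widest of the 8 genes there. Sdf4 (1931 CPM) and Crem (1149 CPM) were highest in the largest cluster, of 355 cells, led by Gzma and Tnfrsf4. For Crem the interval overlapped that of the cluster richest in Ccl5 (1055 CPM). All of Sdf4, Ehd1, Furin, Ctsb and Crem had their lowest value in the Cd8a and Cd8b1 cluster, though for Ehd1, Ctsb and Crem the interval overlapped that of the next cluster. AW112010 ranged only from 2901 CPM to 3515 CPM over the 6 clusters, and 4 of the 5 neighbours in its order had overlapping intervals. Ms4a4b was highest in the cluster led by Ccl5 and Lag3 (1111 CPM) and lowest in the Capg and Emb cluster (390 CPM).

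In the spleen, Plac8 fell from 754 CPM (691 to 821) in the Ccl5 and Ccl4 cluster to 447 CPM in the effector-memory-like cluster, led by Nkg7 and S100a6, and to 49.1 CPM in a cluster led by Ncl and Eif5a. Ehd1 had 136 CPM (110 to 166) in the Ccl5 and Ccl4 cluster, 118 CPM (98.9 to 140) in the effector-memory-like cluster, which did not differ beyond counting error, and 6 UMIs in the naive-like cluster led by Klf2, Tcf7 and Ccr7. AW112010 (3427 CPM), Furin (364 CPM), Ctsb (986 CPM) and Sdf4 (1502 CPM) were highest in the effector-memory-like cluster. For AW112010 and Ctsb the interval overlapped that of the Ccl5 and Ccl4 cluster (3229 CPM and 895 CPM), so these did not differ beyond counting error. Sdf4 was as high in the Treg-like cluster (1499 CPM), where Crem was highest (392 CPM). The Crem interval there overlapped that of the effector-memory-like cluster (332 CPM). Ms4a4b was highest in the naive-like cluster, at 2031 CPM (1940 to 2124), where Sdf4, Ehd1, Ctsb and Crem were at their lowest. No cell type known to lack these genes was identified, so the level of free RNA was not measured. The lowest share of thinned cells with a UMI in any splenic cluster was 6.7% for Plac8, 1.0% for Ehd1 and 3.9% for Furin.

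**Figure D4:**
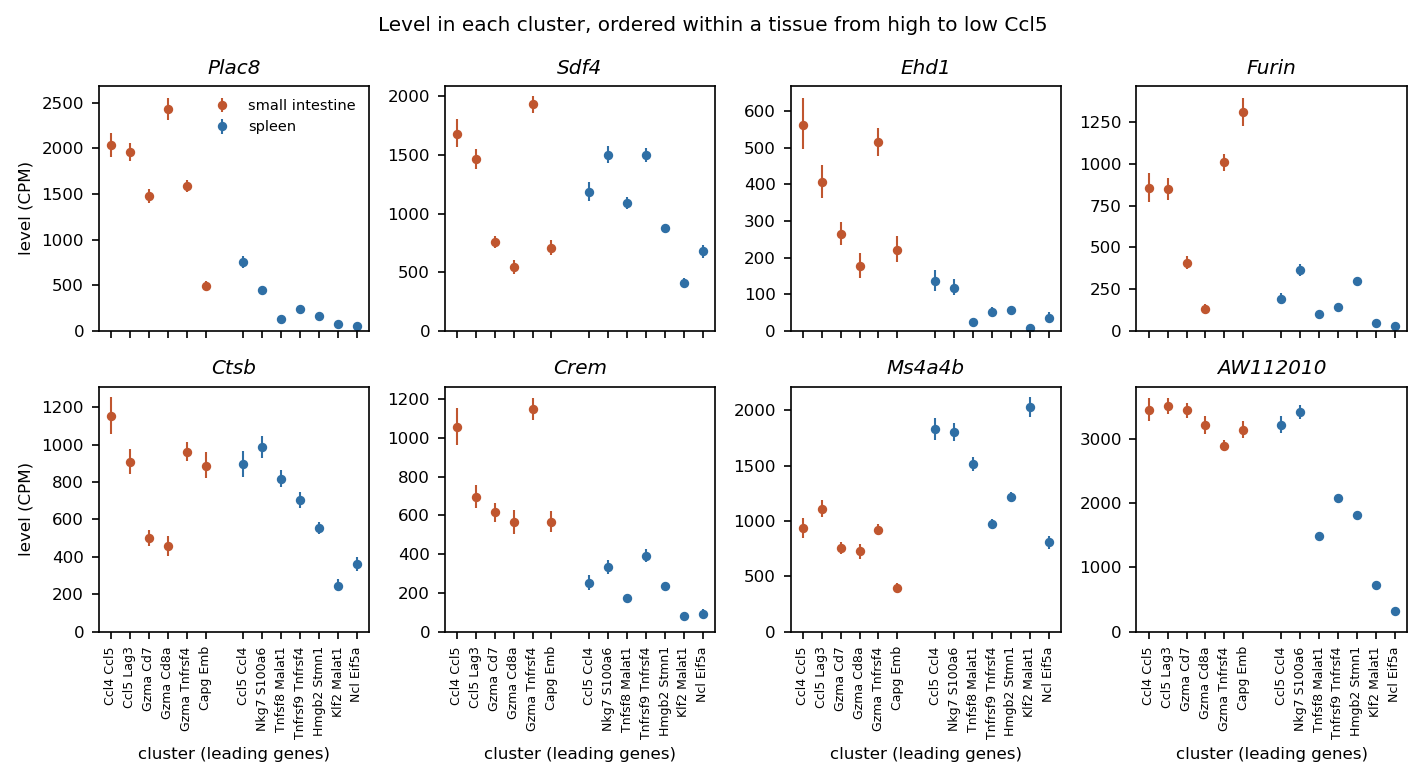
Level of each gene (CPM, with exact 95% Poisson intervals) in every cluster, named by its leading genes and ordered within each tissue from high to low Ccl5. Plac8 and Ehd1 are highest in the 2 splenic clusters richest in Ccl5, Furin is highest in the cluster lowest in Ccl5 in the small intestine, and Ms4a4b is highest in the Klf2 cluster of the spleen.

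The genes most like each of the 8 were sought by the Pearson correlation of log2(CPM + 10) over all 13 clusters, among genes with at least 500 UMIs. The clusters come from 2 libraries and share cells' depth and tissue, so the correlations only describe the pattern. Plac8 was most like Nedd9 (r = 0.98), Serpinb6b (0.97) and Ccl5 (0.97). Ehd1 was most like Dusp5, Lilr4b and Isy1 (0.97, 0.97 and 0.96) and Crem like Dusp5, Got1 and Dgat1 (0.97, 0.97 and 0.96). Furin was most like Mdm2, Pim1 and Picalm (0.95, 0.93 and 0.93), Sdf4 like Cd53, Arf4 and Sft2d1 (0.95, 0.93 and 0.90) and Ctsb like Xlr4b, Sirt2 and Bcl2a1b (0.93, 0.93 and 0.92). AW112010 was most like Glrx and Myo1f (0.97 and 0.96). The nearest gene to Ms4a4b was Ms4a6b, another MS4A gene, but the likeness was weaker (0.84) and smaller in the small intestine (0.53) than in the spleen (0.87).

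The pathways around the 8 genes were followed between Ccl5-high and Ccl5-low cells in lists of related genes. Of all genes, 10.2% were at least 1.5-fold higher and 15.3% lower in small-intestinal Ccl5-high cells, and 7.26% and 13.1% in splenic ones, and the counts of each list stand beside these shares. Among cathepsins, cystatins and lysosomal genes, 14 of 20 passed 100 UMIs in small intestine and 15 in spleen, of which 5 were at least 1.5-fold higher and 3 lower in each tissue. Ctsw, a cathepsin of cytotoxic cells (log2 ratio 3.66 in small intestine and 2.49 in spleen), Ctsd (0.82 and 1.10), Ctsa (0.64 and 0.88) and the cystatin gene Cst7 (0.84 and 0.74) were higher in both. Ctsz was lower in both (-0.81 and -0.79). The list thus held genes on both sides, its lower genes being near the share of all genes (15.3% and 13.1%), and its median was 0.03 and 0.05.

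Of 18 interferon-induced genes, the group of AW112010, 15 passed in the small intestine, with 6 higher and none lower (Isg15 at 0.92), and 18 in the spleen, with 1 higher and 2 lower. All genes had 10.2% higher and 15.3% lower in the small intestine and 7.26% and 13.1% in the spleen, near the splenic counts. Gbp2 was higher in both (0.69 and 0.63), and the abundant Ifi27l2a was level (-0.02 and 0.02). Ifi47 had 0.05 and -0.25. The list median was 0.29 and 0.00. Of 18 genes of the CREB family and cAMP signalling, 13 and 12 passed, with 3 higher in each tissue (10.2% and 7.26% of all genes) and 2 and 1 lower (15.3% and 13.1%). Pde7a, a phosphodiesterase (0.83 and 1.18), and Adora2a, an adenosine receptor that raises cAMP (1.43 and 1.16), were higher in both. Prkacb had 0.82 and 0.37, Prkar1a 0.07 and 0.17 and Atf1 -0.36 and 0.14. The median was 0.07 and 0.16.

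Of 12 genes of the CREC family and trans-Golgi sorting, 8 and 9 passed, with 1 higher in each and none lower, and Rcn1, of the same family as Sdf4, was the only one higher in both (1.45 and 0.83). Nucb1 had 0.40 and 0.54 and Tgoln1 0.58 and 0.05, and the abundant Cfl1 -0.18 and -0.03. Of 14 genes of the EHD family and endocytic recycling, 7 and 11 passed, with 1 and 2 higher, near the 10.2% and 7.26% of all genes, and Ehd3 was higher in both (1.96 and 0.96). Arf6 had 0.07 and 0.25, Rab11a 0.11 and -0.02 and Rab11b -0.15 and -0.0062. Of 15 proprotein convertases and furin substrates, 6 passed in each tissue, none was higher and 1 and 2 were lower. Tgfb1, a substrate of furin, had -0.97 in small intestine and -0.26 in spleen. Adam10 had -0.38 and -0.22 and Notch1 -0.09 and 0.03. Of 16 MS4A genes, 7 had no UMI in either library, and 2 and 4 passed, with 1 higher in each and none and 1 lower. The abundant Ms4a6b had 0.12 and 0.16 and Ms4a6d, with few UMIs, 0.66 (-0.44 to 2.01) and 0.80. Ms4a6c, with 199 UMIs in all, had -0.55 (-1.58 to 0.65) and -0.05 and did not pass in the small intestine.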

How the data were processed

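Counts of UMIs per gene and cell barcode were deposited by the authors, who trimmed the reads with Trimmomatic, aligned them to Mm10 and counted with Cell Ranger. The labels also list mm8. Versions are not given in the sources used here, and the counts are not normalized. The 8 genes, the lists of related genes and the limits on UMIs were chosen with earlier results of these data known. Barcodes more than 3 MAD below the median log UMIs or log genes, or as far above that of the mitochondrial share, were dropped (135 of the small intestine, 90 of the spleen), then cells that cyclone (scran 1.30.0) placed in G2/M (61 and 179). Cells under 2089 UMIs, the 10th percentile of the small-intestinal library (128 and 30), were left out of thinned comparisons. Cells were classed on thinned UMIs, and levels were summed from the unthinned UMIs of the same cells. Ratios have exact 95% binomial intervals conditional on the sum of both counts. Clusters were found by Louvain on a graph of 10 neighbours over 20 principal components (bluster 1.12.0). Genes named are the 8 genes, Ccl5, Gzmb and Il10, the 3 genes most like each, and from each list the 3 with most UMIs and those past 1.5-fold one way in both tissues. Of the genes most like AW112010, 1 is not reported here. Doublets (Scrublet in scanpy 1.11.5: 12 and 3 barcodes) were removed only as an alternative. Of the markers of γδ T cells, 0 of 5 are listed in the files used here. In the kept cells, CD8 markers summed to 353 and 13.7 CPM in small intestine and spleen, B-cell markers to 104.3 and 33.7 CPM, NK-cell markers to 0.795 and 1.53 CPM, myeloid markers to 211 and 181 CPM, epithelial markers to 22.4 and 32.6 CPM and erythroid markers to 0 and 0.327 CPM. The ratio was tested on simulated data, and the thinning on the kept cells of both libraries. R 4.3.3 and Python 3.11.15 were used.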

Additional observations from a re-analysis of the deposited data

Results flagged for a closer look

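Ctsb had opposite directions in the 2 tissues between Ccl5-high and Ccl5-low cells. The log2 ratio was -0.20 in small-intestinal and 0.48 in splenic cells, each with an interval that leaves out 0 and the same sign in all 6 thinnings. Without cells holding a CD8 UMI the intestinal value was -0.061, with an interval across 0.

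Furin had opposite directions between Gzmb-high and Gzmb-low cells, with -0.71 in small-intestinal and 0.53 in splenic cells. Over 6 thinnings these ran from -0.80 to -0.70 and from 0.14 to 0.53. Splenic Furin did not rise steadily over the classes of Gzmb UMIs. Inside intestinal Ccl5-high cells, of which 30 were Gzmb-low, the ratio of Furin was 0.57, the highest of 6 thinnings that ran from -0.12. It was positive in 3 of the 6. With 1 library per tissue neither difference between the tissues was tested. The intestinal low groups held 99 and 109 cells.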

How the results depend on the processing

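With 1 library per tissue no replicate could be left out. No paired analysis was possible because each group has 1 sample. The count of genes that differ between the tissues was 6 under all 7 alternatives. Of 107 counts under alternatives, 90 stayed within 1.5 times the value given and 17 did not. The 5 genes of the intestinal Ccl5 comparison became 3 with G2/M cells kept. The 2 of the intestinal Gzmb comparison became 1 in 2 of 5 further thinnings. The 2 of the intestinal Il10 comparison became 1 with G2/M cells kept, with Scrublet doublets removed, with 1 thinned UMI against 0, in 2 of 5 further thinnings, with thinning to the median depth, with the mean of each cell's own CPM and with levels from thinned UMIs. The 3 of the splenic Il10 comparison became 1 with all barcodes, with G2/M cells kept and in 1 further thinning, and 5 with thinning to the median depth. With 20 neighbours, the genes highest in the Ccl5-richest cluster became 1 for the small intestine and 4 for the spleen. Which genes peak in that intestinal cluster also changed with the filter on cells, and with all barcodes they were Ms4a4b and AW112010. The splenic Ehd1 ratio to Il10 turned to -0.062 with G2/M cells kept. Of 760 single values, 595 stayed within the counting interval, 164 moved beyond it, 157 of these with the same sign, and 1 reversed. Leaving out cells with a CD8 or a B-cell marker UMI, alternatives chosen after seeing the data, left 5 and 3 genes in the Ccl5 comparisons. The cause was not tested. Depth limits values near or under 1 UMI per thinned cell, such as those of Il10 (0.994) and Ehd1 (0.101) in the spleen.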

Other observations

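In the 61 small-intestinal cells that were left out as G2/M, Sdf4 was lower than in the kept cells (595 CPM against 1250 CPM, log2 ratio -1.07), as were Ehd1 (-1.02), Furin (-0.99) and Ctsb (-0.93). Ms4a4b (-0.27), Crem (-0.35) and Plac8 (-0.45) differed less, and AW112010 was slightly higher (0.16). In the 179 splenic cells left out as G2/M, Sdf4, Ehd1, Furin and Ctsb had ratios of -0.07, 0.04, 0.16 and -0.15, while Crem (0.33) and Ms4a4b (0.23) were higher. Ccl5 was lower in G2/M cells of both tissues (-0.77 and -0.69). The same ratio over all genes was not computed, so nothing is read from these values about the 8 genes against others.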
